A study of Mus musculus with 9 samples.

Results

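The genes described here are 9 membrane transporters that carry organic anions, organic cations and related solutes into or out of liver cells: Slco1a4, Slco2a1, Slco2b1, Slc22a3, Slc22a5, Slc22a7, Slc22a23, Slc22a30 and Slc47a1. They were taken by gene symbol, from a list drawn up with earlier results of these data known, and all 9 were found among the 24541 symbols of the expression values. Each passed the filter on low values, an average of 0.5 FPKM or more over all livers, which kept 12202 genes for testing. FPKM counts fragments relative to transcript length in kilobases and to each 1000000 fragments mapped. It is corrected for transcript length, so levels can be set side by side between genes.

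Hepatocytes take up drugs, hormones and bile constituents from blood through transporters of their sinusoidal membrane and release them, often after conjugation, through pumps and exchangers of the canalicular membrane that faces bile. The SLCO genes encode organic anion transporting polypeptides, the SLC22 genes encode organic anion, organic cation and carnitine transporters, and SLC47 genes encode proton exchangers that expel organic cations. Members of these families decide how fast many drugs enter and leave the liver, and they are known to respond to drug-sensing nuclear receptors and to liver injury.

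RNA came from livers of Balb/c mice at 9 weeks of age in 3 groups of 3 livers: LRH1+APAP, APAP and vehicle. APAP is acetaminophen, a painkiller that injures the liver in overdose through a reactive metabolite formed by hepatocytes, and LRH1 is an orphan nuclear receptor of hepatocytes whose gene is Nr5a2. The labels give neither the dose nor the time, nor how LRH1 was delivered, and LRH1 without APAP was not among the groups. Nothing beyond the number of each liver says how the 3 livers of a group were obtained, so p-values measure the spread between these livers.

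Nr5a2 was listed at a mean of 134.3 FPKM in LRH1+APAP livers, against 10.1 FPKM in APAP livers and 13.4 FPKM in vehicle livers. Single LRH1+APAP livers differed widely, with 205.7, 83.8 and 113.4 FPKM of Nr5a2. Summed FPKM lay between 520072 and 529493 in LRH1+APAP livers, between 546381 and 555936 in APAP livers and between 555202 and 575365 in vehicle livers, and read depth is unknown. APAP livers differed most among themselves, with Spearman correlations across genes of 0.9887 to 0.9908 within LRH1+APAP livers, 0.9491 to 0.9768 within APAP livers and 0.9899 to 0.9904 within vehicle livers. APAP liver 1 correlated at 0.9741 to 0.9800 with LRH1+APAP livers and at 0.9491 and 0.9755 with the other APAP livers. Hepatocyte markers were abundant everywhere. The 9 marker genes summed to 55418 to 62221 FPKM in LRH1+APAP livers, 57722 to 61863 FPKM in APAP livers and 59226 to 63396 FPKM in vehicle livers. By limma, as defined below, 4 of these markers rose and 3 fell in APAP against vehicle livers, beside 47.8 and 15.1 percent of all genes. In LRH1+APAP livers 0 rose and 5 fell against APAP, beside 7.13 and 5.17 percent. Against vehicle 0 rose and 2 fell in LRH1+APAP livers, beside 39.2 and 8.02 percent. Neutrophil markers, 8 genes, summed to 5.48 to 6.57 FPKM in LRH1+APAP livers, 30.8 to 482.6 FPKM in APAP livers and 1.68 to 2.81 FPKM in vehicle livers. Stellate cell and fibroblast markers, 10 genes, summed to 229.1 to 237.5 FPKM in LRH1+APAP livers, 190.3 to 282.8 FPKM in APAP livers and 81.1 to 140.6 FPKM in vehicle livers. Cholangiocyte markers, 7 genes with Cftr at 0, summed to 39.5 to 135.0 FPKM in LRH1+APAP livers, 34.1 to 79.2 FPKM in APAP livers and 18.1 to 20.2 FPKM in vehicle livers, so all 3 lists were lowest there. The part of these cells in the results was not tested.

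Kidney tubule markers, listed because several of these transporters are also renal, summed to at most 0.06 FPKM in any liver, and 4 of the 7, Umod, Slc12a1, Kap and Aqp2, were at 0 throughout.

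In this tissue the 9 genes ranged widely in level. In vehicle livers Slc22a30 and Slc47a1 were the most abundant, with means of 59.4 and 52.1 FPKM, followed by Slc22a5 at 25.5, Slco1a4 at 18.8, Slco2b1 at 17.9, Slc22a23 at 15.4, Slco2a1 at 9.13, Slc22a7 at 3.93 and Slc22a3 at 1.29 FPKM. Summed over the 9 genes, the level was 154.4 to 167.8 FPKM in LRH1+APAP livers, 108.3 to 142.4 FPKM in APAP livers and 194.0 to 218.2 FPKM in vehicle livers, with no overlap between groups. The make-up of that sum also differed. In LRH1+APAP livers Slco2a1 supplied between 10.9 and 11.8 percent of it, in APAP livers between 12.7 and 23.1 percent, and in vehicle livers between 3.98 and 4.84 percent, while Slc47a1 supplied 19.3 to 20.4 percent, 12.9 to 14.5 percent and 25.1 to 26.6 percent in the same groups. In bulk liver RNA, fewer cells of a type and less RNA per cell cannot be told apart.

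**Figure D1:**
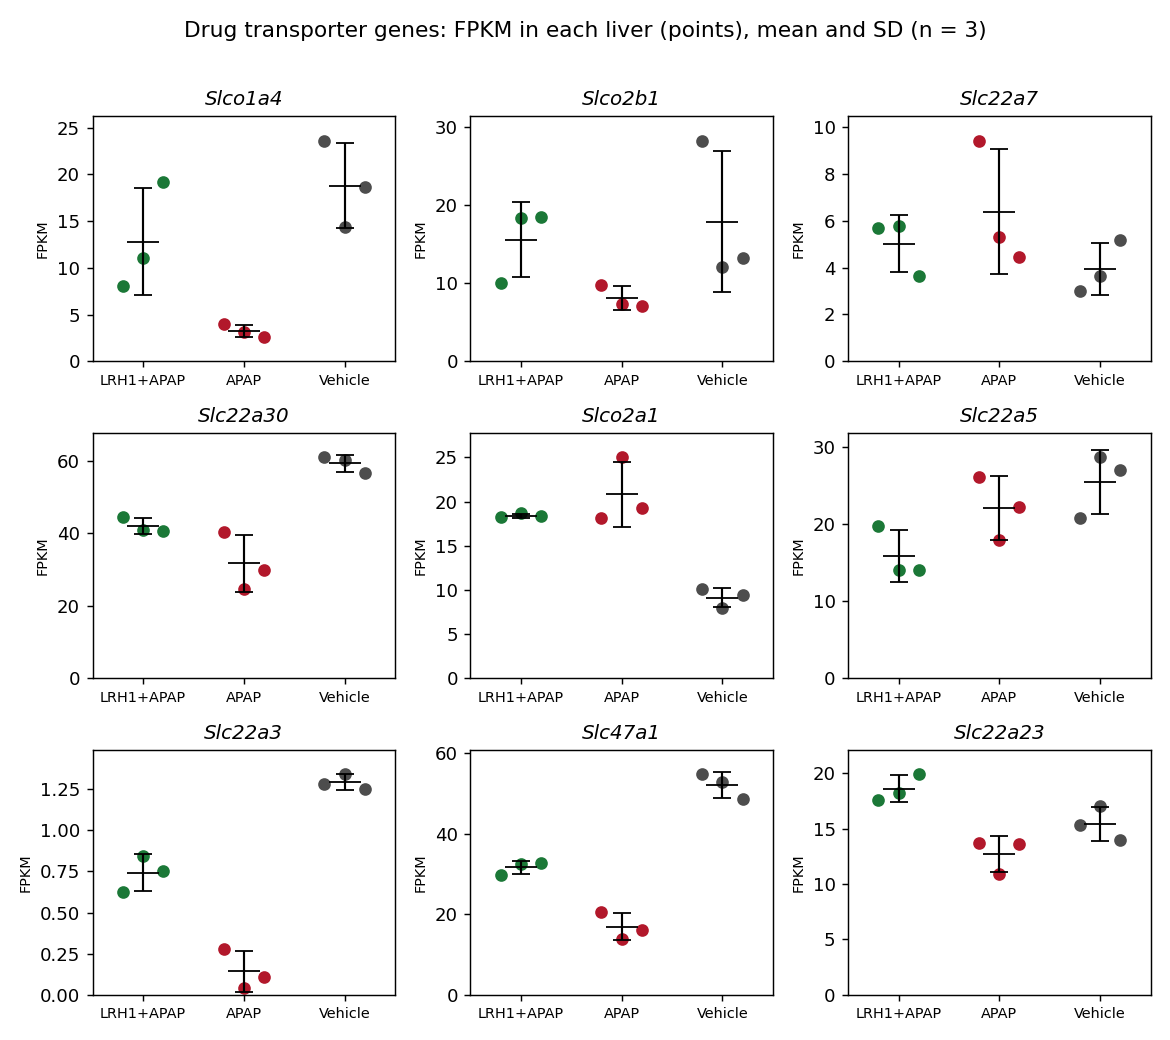
FPKM of each of the 9 transporter genes (vertical axes from 0) in every liver, with LRH1+APAP, APAP and vehicle livers from left to right, points for livers and bars for the mean and SD of 3 livers. Slco1a4, Slco2b1, Slc22a3, Slc22a23, Slc22a30 and Slc47a1 are lowest in APAP livers without overlap with vehicle livers, whereas Slco2a1 is lowest in vehicle livers, at 7.89 to 10.1 FPKM.

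APAP livers had less messenger RNA of 5 of these transporters than vehicle livers. Of the 9 genes, 5 fell (Slco1a4, Slco2b1, Slc22a3, Slc22a30 and Slc47a1), 1 rose (Slco2a1) and 3 did not pass (Slc22a5, Slc22a7 and Slc22a23), by limma on log2 values of FPKM plus 1, two-sided, at a Benjamini-Hochberg adjusted p under 0.05 over all genes tested. Over all 12202 genes, 15.1 percent were lower and 47.8 percent higher, so most of the 9 moved against the prevailing direction, with a median log2 difference of -0.91 beside 0.25 over all genes. The prevailing direction depends on scaling: after upper-quartile scaling 3810 of all genes were higher and 3227 lower, with a median of 0.04, and after quantile normalization 3126 were higher and 3699 lower, with a median of -0.04. Under either scaling the transporters that fell numbered 6, with Slc22a23 as the addition, and Slco2a1 was still the 1 that rose. Those that fell also numbered 6 without APAP liver 1 or vehicle liver 3. They numbered 4 without APAP liver 2, APAP liver 3 or vehicle liver 1, and with the liver number as a block. A filter of 5 FPKM also gave 4.

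LRH1+APAP livers had more of 4 of the transporters than APAP livers. Slco1a4, Slc22a3, Slc22a23 and Slc47a1 rose and 0 fell by limma at an adjusted p under 0.05, beside 7.13 percent of all genes higher and 5.17 percent lower. At an unadjusted p under 0.05, 6 were higher and 1, Slc22a5, was lower, beside 3996 of all 12202 genes at that p in either direction. The median log2 difference of the 9 genes was 0.52, beside -0.01 over all genes. The count of 4 became 2 (Slco1a4 and Slc47a1) without LRH1+APAP liver 3 and when only the 6 libraries of both groups were fitted. This comparison uses the same APAP livers as the one with vehicle, so the comparisons are not independent.

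Set against vehicle livers, LRH1+APAP livers had lower levels of 4 transporters (Slc22a3, Slc22a5, Slc22a30 and Slc47a1) and a higher level of 1 (Slco2a1) by limma, beside 8.02 percent of all genes lower and 39.2 percent higher. The median log2 difference was -0.40, beside 0.22 over all genes. Without LRH1+APAP liver 2, vehicle liver 2 or vehicle liver 3, 2 transporters were lower (Slc22a3 and Slc47a1). The count of higher transporters was 2, with Slc22a23 as the addition, without APAP liver 2. All genes together split 2358 higher and 2396 lower after upper-quartile scaling, where 5 transporters were lower, and 1899 higher and 2624 lower after quantile normalization, where 4 were.

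**Figure D2:**
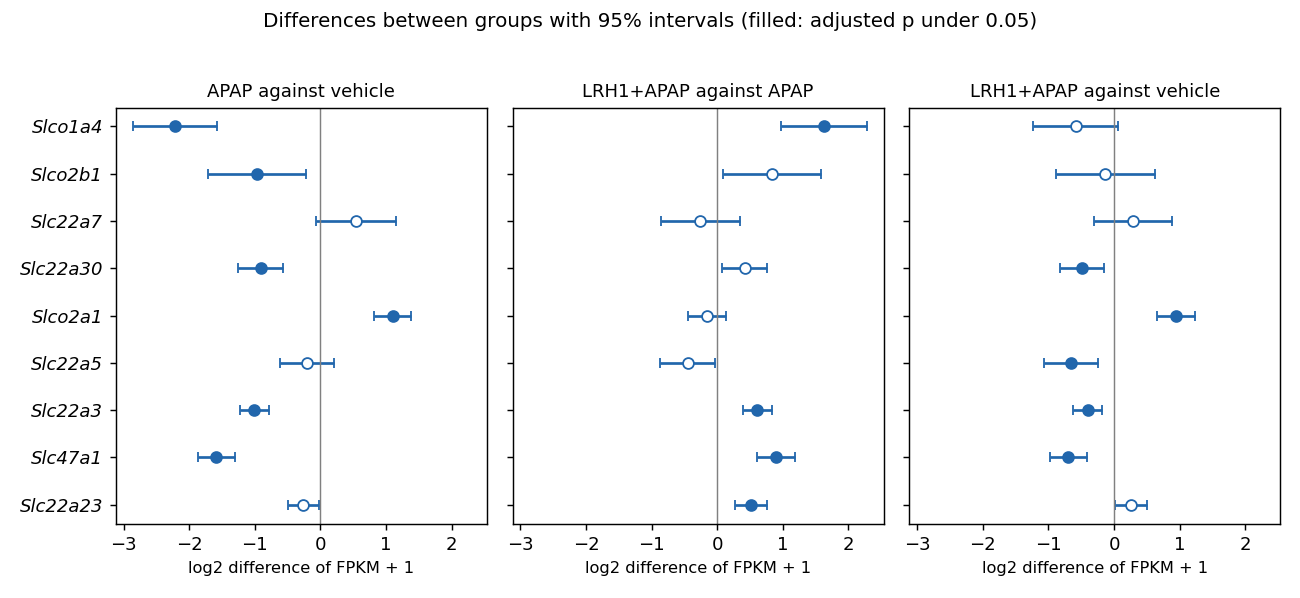
Log2 difference of FPKM plus 1 (horizontal axes) of each transporter gene in the 3 comparisons, with 95% intervals from limma and filled points for an adjusted p under 0.05. On this scale Slco1a4 lies at -2.21 for APAP against vehicle and 1.63 for LRH1+APAP against APAP, and Slco2a1 lies right of 0 in both comparisons with vehicle, at 1.10 and 0.94.

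Among the organic anion carriers of the 9 genes, Slco1a4 had the largest differences in both comparisons with APAP livers. It encodes a sinusoidal uptake carrier of rodent hepatocytes for bile acids, steroid conjugates and drugs, and lies on chromosome 6 (mm10, 141805441 to 141856171, minus strand). It was listed at 8.04, 11.1 and 19.2 FPKM in LRH1+APAP livers, 3.95, 3.12 and 2.64 FPKM in APAP livers and 23.6, 14.4 and 18.6 FPKM in vehicle livers. Every APAP liver was below every other liver, while LRH1+APAP and vehicle livers overlapped. APAP livers had a lower level, 0.17 times the vehicle mean (log2 difference -2.21 ± 0.28 SE, adjusted p = 0.000379 by limma, lower in 3 of 3 livers). It rose in LRH1+APAP livers to 3.94 times the APAP mean (1.63 ± 0.28, adjusted p = 0.0135 by limma, its alternatives spanning 0.00488 to 0.0496). The difference between LRH1+APAP and vehicle livers did not pass (-0.58, interval -1.23 to 0.06, adjusted p = 0.12 by limma), but without LRH1+APAP liver 3, the highest of its group, the difference passed at -0.90 (adjusted p = 0.0221), as it did after upper-quartile scaling at -0.84 (0.0451), its alternatives spanning 0.0221 to 0.363.

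The start region of Slco1a4 is shown because it had the largest log2 differences of the 9 genes in both comparisons with APAP livers when 1 FPKM is added. With 0.1 added, Slc22a3 exceeded it, at -2.64 beside -2.50 in APAP against vehicle and 1.91 beside 1.87 in LRH1+APAP against APAP livers. The RefSeq window (GRCm38.p6, the mm10 assembly) spans 250 bases before to 50 after the annotated start, chr6:141856171-141856470 on the minus strand, and has 40.7 percent G and C. None of 6 searched motifs was found in it, so no letters are in capitals.

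Slco1a4: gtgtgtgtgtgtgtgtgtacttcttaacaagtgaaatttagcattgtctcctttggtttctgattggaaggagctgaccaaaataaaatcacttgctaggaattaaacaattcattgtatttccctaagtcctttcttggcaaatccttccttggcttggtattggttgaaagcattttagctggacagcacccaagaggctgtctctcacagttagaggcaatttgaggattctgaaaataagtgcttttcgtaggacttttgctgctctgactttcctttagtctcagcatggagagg

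The motifs, searched on both strands, were CAAGGTCA, an extended half-site bound by LRH1, AGGTCA, a half-site of nuclear receptors that lies within it, TGACNNNGC, the core of the antioxidant response element, TGANTCA, bound by AP-1, which can overlap TGACNNNGC, GTTAAT, a half-site of HNF1, and TATAAA, the TATA box. Of 32851 RefSeq windows of this length, 1.56 percent held CAAGGTCA, 16.3 percent AGGTCA, 12.4 percent TGACNNNGC, 7.81 percent TGANTCA, 7.1 percent GTTAAT and 13.6 percent TATAAA. RefSeq windows were matched for 7 of the 9 genes, as 9 windows. Of these, 1 held TATAAA (Slco2a1) and 1 held TGANTCA (the farthest upstream start of Slco2b1), and none held the other 4 motifs within these letters.

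Slco2b1 encodes a broad uptake carrier for steroid sulfates and drugs and lies on chromosome 7 (mm10, 99657805 to 99711340, minus strand). Its 3 transcript models summed to 10.0, 18.4 and 18.5 FPKM in LRH1+APAP livers, 9.83, 7.38 and 7.05 FPKM in APAP livers and 28.3, 12.1 and 13.2 FPKM in vehicle livers. APAP livers were lowest without overlap, but vehicle liver 1 stood well above its group. The fall in APAP livers, to 0.45 times the vehicle mean (log2 difference -0.97 ± 0.33, adjusted p = 0.0293 by limma), did not survive the omission of vehicle liver 1, which left -0.60 (adjusted p = 0.0796). Omitting APAP liver 2 (adjusted p = 0.0664) or APAP liver 3 (0.0856), or using the liver number as a block (0.0505), also ended the call, its alternatives spanning 0.0115 to 0.0856. LRH1+APAP livers differed from APAP livers by 0.84 (interval 0.09 to 1.58, adjusted p = 0.118 by limma) and from vehicle livers by -0.13 (interval -0.88 to 0.62, adjusted p = 0.761 by limma).

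The 3 models of Slco2b1 share their end and differ in where they start, and their shares differed between groups. Variant 2, which starts farthest upstream at 99711340, was listed at 0, 0 and 1.21 FPKM in LRH1+APAP livers, 2.45, 2.21 and 1.85 FPKM in APAP livers and 3.56, 3.52 and 2.15 FPKM in vehicle livers. Variant 1, which starts at 99706842, was listed at 5.66, 8.73 and 11.7 FPKM in LRH1+APAP livers, 2.74, 2.37 and 2.03 FPKM in APAP livers and 8.27, 2.97 and 2.89 FPKM in vehicle livers. Variant 3, which starts at 99695809, was listed at 4.38, 9.63 and 5.55 FPKM in LRH1+APAP livers, 4.64, 2.80 and 3.17 FPKM in APAP livers and 16.5, 5.62 and 8.18 FPKM in vehicle livers. Variant 1 thus made up between 47.5 and 63.4 percent of the gene in LRH1+APAP livers, between 27.8 and 32.1 percent in APAP livers and between 21.9 and 29.2 percent in vehicle livers. Variant 2 was lowest in every LRH1+APAP liver, and the ranges of its share did not overlap with those of the other groups. These shares were compared after their values were seen and were not tested, and a listed 0 can be a failed estimate where models share most of their length. Exons of the antisense genes Gm15635 and Gm34280 overlap those of Slco2b1 in GENCODE M21, and whether fragments were assigned by strand is not given in the sources used here.

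**Figure D3:**
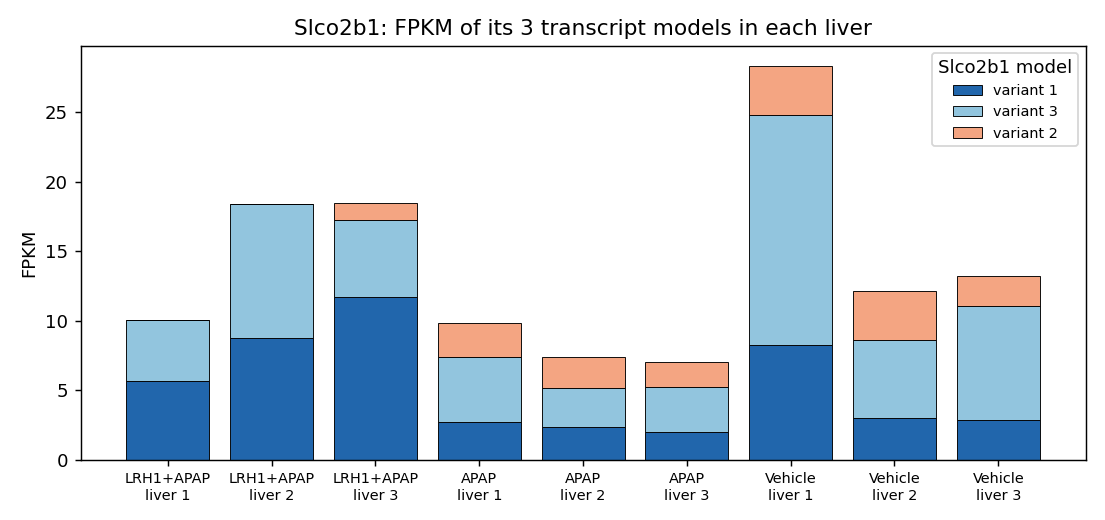
FPKM of the 3 transcript models of Slco2b1 (vertical axis, stacked) in each liver, with LRH1+APAP, APAP and vehicle livers from left to right. Variant 1 forms 47.5 to 63.4 percent of each LRH1+APAP bar, against 27.8 to 32.1 percent of APAP bars and 21.9 to 29.2 percent of vehicle bars.

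The start windows of the 3 models are shown because the models differ there. They lie at chr7:99711291-99711590 for variant 2, chr7:99706793-99707092 for variant 1 and chr7:99695760-99696059 for variant 3, all on the minus strand (RefSeq, GRCm38.p6), and capitals mark the match to TGANTCA in the window of variant 2, which begins at base 14 after the start.

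Slco2b1 variant 2: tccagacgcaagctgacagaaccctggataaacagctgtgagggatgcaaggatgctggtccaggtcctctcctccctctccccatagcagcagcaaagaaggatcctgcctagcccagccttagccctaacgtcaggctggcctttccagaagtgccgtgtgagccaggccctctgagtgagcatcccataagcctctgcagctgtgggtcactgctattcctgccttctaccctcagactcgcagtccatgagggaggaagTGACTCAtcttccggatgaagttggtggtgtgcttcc

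Slco2b1 variant 1: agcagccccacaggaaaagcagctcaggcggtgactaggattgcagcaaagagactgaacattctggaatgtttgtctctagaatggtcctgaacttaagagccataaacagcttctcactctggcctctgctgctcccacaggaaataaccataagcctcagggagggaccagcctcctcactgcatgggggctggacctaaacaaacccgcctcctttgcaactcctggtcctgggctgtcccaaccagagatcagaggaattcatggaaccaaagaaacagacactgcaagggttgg

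Slco2b1 variant 3: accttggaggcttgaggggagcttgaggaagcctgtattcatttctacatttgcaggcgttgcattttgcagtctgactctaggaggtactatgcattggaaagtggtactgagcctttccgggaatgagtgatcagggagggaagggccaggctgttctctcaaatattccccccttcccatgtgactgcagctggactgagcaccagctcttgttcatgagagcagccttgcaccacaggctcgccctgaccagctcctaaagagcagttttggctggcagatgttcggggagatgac

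Slc22a30, an SLC22 family member in a cluster of related genes on chromosome 19 (mm10, 8335624 to 8405105, minus strand), was the most abundant of the 9 genes in vehicle livers. It was listed at 44.6, 40.8 and 40.7 FPKM in LRH1+APAP livers, 40.4, 24.7 and 30.0 FPKM in APAP livers and 61.0, 60.4 and 56.7 FPKM in vehicle livers. Every vehicle liver was above all others, and APAP liver 1 lay just under the LRH1+APAP livers. The level fell in APAP livers to 0.53 times the vehicle mean (-0.91 ± 0.15, adjusted p = 0.00109 by limma). In LRH1+APAP livers it fell to 0.71 times the vehicle mean (-0.49 ± 0.15, adjusted p = 0.0265 by limma), a call lost without LRH1+APAP liver 2 (0.0734) or 3 (0.0801), without vehicle liver 1 (0.0742), 2 (0.0713) or 3 (0.0548) and after scaling to summed FPKM (0.0548), its alternatives spanning 0.000404 to 0.0801. Against APAP livers, LRH1+APAP livers differed by 0.42 (interval 0.08 to 0.76, adjusted p = 0.0912 by limma). Without APAP liver 1 that difference passed at 0.61 (adjusted p = 0.00209, its alternatives spanning 0.00209 to 0.214). Fragments that Slc22a30 shares with its close relatives may have been divided among them, so its level is uncertain to that extent.

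Slc22a7 encodes OAT2, an organic anion transporter of liver and kidney (chromosome 17, mm10, 46432186 to 46438477, minus strand). Its level was 5.70, 5.75 and 3.63 FPKM in LRH1+APAP livers, 9.41, 5.29 and 4.45 FPKM in APAP livers and 3.00, 3.63 and 5.17 FPKM in vehicle livers. All 3 groups overlapped, and APAP liver 1 was the highest of all livers. It passed in none of the 3 comparisons by limma: APAP differed from vehicle by 0.55 (interval -0.06 to 1.15, adjusted p = 0.1), LRH1+APAP from APAP by -0.26 (interval -0.86 to 0.35, adjusted p = 0.526) and LRH1+APAP from vehicle by 0.29 (interval -0.31 to 0.89, adjusted p = 0.39). It alone among the 9 genes had no call.

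Of the 9 genes, Slco2a1 was the 1 that rose against vehicle in both other groups. It encodes the prostaglandin transporter, which brings prostaglandins into cells where they are broken down, and lies on chromosome 9 (mm10, 103008490 to 103087849, plus strand). It was listed at 18.2, 18.7 and 18.4 FPKM in LRH1+APAP livers, 18.1, 25.0 and 19.3 FPKM in APAP livers and 10.1, 7.89 and 9.40 FPKM in vehicle livers. All 6 livers given APAP were above the 3 vehicle livers. It rose to 2.28 times the vehicle mean in APAP livers (1.10 ± 0.13, adjusted p = 0.000225 by limma) and to 2.02 times in LRH1+APAP livers (0.94 ± 0.13, adjusted p = 0.000708 by limma). LRH1+APAP livers differed from APAP livers by -0.16 (interval -0.44 to 0.13, adjusted p = 0.414 by limma). Both rises passed in all 23 alternatives run for each, with log2 differences of 0.82 to 1.19 for APAP and 0.66 to 1.05 for LRH1+APAP.

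Slco2a1 is also expressed by endothelial cells, so markers of liver endothelium were read beside it. The summed level of 13 such markers, each of them tested, was 223.9 to 229.9 FPKM in LRH1+APAP livers, 247.6 to 317.3 FPKM in APAP livers and 181.8 to 200.4 FPKM in vehicle livers. In APAP livers 8 of the 13 rose and 0 fell against vehicle by limma, with a median of 0.34, beside 47.8 percent of all genes higher and a median of 0.25. In LRH1+APAP livers 2 of the 13 rose and 0 fell against vehicle, beside 39.2 percent of all genes higher, and 4 fell and 0 rose against APAP, beside 5.17 percent of all genes lower. Single markers differed, and those named here were chosen after their values were seen. Pecam1, an adhesion molecule of endothelium, averaged 10.9 FPKM in LRH1+APAP livers, 15.0 FPKM in APAP livers and 5.56 FPKM in vehicle livers, and rose against vehicle in both. Pecam1 also fell in LRH1+APAP against APAP livers (-0.42, adjusted p = 0.0353 by limma). Cdh5, the cadherin of endothelial junctions, averaged 7.21 FPKM in LRH1+APAP livers, 21.7 FPKM in APAP livers and 4.98 FPKM in vehicle livers. Lyve1, a hyaluronan receptor of sinusoidal endothelium, averaged 9.80 FPKM in LRH1+APAP livers, 30.5 FPKM in APAP livers and 6.23 FPKM in vehicle livers. Both rose in APAP livers against vehicle and fell in LRH1+APAP against APAP livers, and neither was called in LRH1+APAP against vehicle livers (adjusted p = 0.25 and 0.138 by limma). Clec4g averaged 61.5 FPKM in LRH1+APAP livers, 78.5 FPKM in APAP livers and 61.4 FPKM in vehicle livers, and Kdr, Ehd3 and Ptprb had log2 differences of 0.02, -0.14 and -0.01 in APAP against vehicle livers, none of them called. Macrophage and Kupffer cell markers, 12 genes, summed to 391.9 to 424.3 FPKM in LRH1+APAP livers, 329.1 to 475.0 FPKM in APAP livers and 190.5 to 228.2 FPKM in vehicle livers. Their part in the level of Slco2a1 was not tested.

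The small antisense gene n-R5s89 overlaps Slco2a1 in GENCODE M21. The start window of Slco2a1 is shown because, of the 9 genes, it was the 1 that rose against vehicle. It lies at chr9:103008237-103008536 on the plus strand (RefSeq, GRCm38.p6) and has 64 percent G and C. Capitals mark the TATAAA, which begins 29 bases before the start.

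Slco2a1: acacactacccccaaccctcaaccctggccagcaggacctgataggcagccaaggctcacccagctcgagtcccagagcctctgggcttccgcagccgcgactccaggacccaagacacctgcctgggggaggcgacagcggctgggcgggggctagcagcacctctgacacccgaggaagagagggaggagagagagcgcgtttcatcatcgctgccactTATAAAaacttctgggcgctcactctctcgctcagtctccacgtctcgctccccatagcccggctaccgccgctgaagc

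Other genes of prostaglandin handling were read from a list of 16, of which 9 were tested. In APAP livers 5 of them rose and 2 fell against vehicle, with a median of 0.32. These counts lie near the shares over all genes, 47.8 percent higher and 15.1 percent lower with a median of 0.25. In LRH1+APAP livers 2 rose and 0 fell against APAP, beside 7.13 percent of all genes higher and 5.17 percent lower. Against vehicle 3 rose and 2 fell in LRH1+APAP livers, beside 39.2 percent higher and 8.02 percent lower. Hpgd, the dehydrogenase that inactivates prostaglandins, averaged 80.9 FPKM in LRH1+APAP livers, 35.8 FPKM in APAP livers and 103.9 FPKM in vehicle livers. It fell in APAP livers (log2 difference -1.52, adjusted p = 5.77e-05 by limma), rose in LRH1+APAP against APAP livers (1.17, adjusted p = 0.00285) and fell in LRH1+APAP against vehicle livers (-0.36, adjusted p = 0.0399). Ptgr2, a prostaglandin reductase, fell in both comparisons with vehicle, by 0.91 in APAP and by 0.50 in LRH1+APAP livers (adjusted p = 0.00102 and 0.0226 by limma). Ptges3, a cochaperone that also has prostaglandin E synthase activity, rose in both, by 0.85 and 0.84 (adjusted p = 0.000149 and 0.000214 by limma). Ptges2, another prostaglandin E synthase, rose in APAP livers by 0.20 (adjusted p = 0.037 by limma).

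The carnitine carrier was called only in LRH1+APAP against vehicle livers. Slc22a5 encodes OCTN2, the sodium-driven carnitine importer, and lies on chromosome 11 (mm10, 53864543 to 53891703, minus strand). Single livers had 19.8, 14.0 and 14.0 FPKM in LRH1+APAP livers, 26.2, 17.9 and 22.3 FPKM in APAP livers and 20.8, 28.7 and 27.1 FPKM in vehicle livers. APAP livers overlapped with both other groups, and LRH1+APAP livers were all below vehicle livers. APAP livers differed from vehicle livers by -0.20 (interval -0.62 to 0.21, adjusted p = 0.356 by limma) and LRH1+APAP from APAP livers by -0.45 (interval -0.87 to -0.04, adjusted p = 0.128 by limma). It fell in LRH1+APAP livers to 0.62 times the vehicle mean (-0.65 ± 0.18, adjusted p = 0.0187 by limma), a call lost without LRH1+APAP liver 2 (0.064) or 3 (0.0706) and without vehicle liver 2 (0.0663) or 3 (0.0628), its alternatives spanning 0.00715 to 0.0706.

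Of 7 tested genes of carnitine synthesis and use, 4 fell and 0 rose in APAP against vehicle livers, with a median of -0.44. Over all genes 15.1 percent were lower and 47.8 percent higher, with a median of 0.25. In LRH1+APAP livers 1 rose and 0 fell against APAP, beside 7.13 percent of all genes higher and 5.17 percent lower. Against vehicle 3 fell and 0 rose in LRH1+APAP livers, beside 8.02 percent lower and 39.2 percent higher. Bbox1, which makes carnitine from its precursor, averaged 65.0 FPKM in LRH1+APAP livers, 33.3 FPKM in APAP livers and 119.1 FPKM in vehicle livers. It fell in APAP livers (-1.90, adjusted p = 0.000434 by limma), rose in LRH1+APAP against APAP livers (1.04, adjusted p = 0.0338) and fell in LRH1+APAP against vehicle livers (-0.86, adjusted p = 0.0226). Aldh9a1, an earlier enzyme of that synthesis, fell by 0.54 in APAP livers and by 0.38 in LRH1+APAP livers against vehicle (adjusted p = 0.00167 and 0.0137 by limma). Cpt1a and Cpt2, which load and unload fatty acids on carnitine, fell in APAP livers by 0.48 and 0.44 (adjusted p = 0.0133 and 0.0189 by limma).

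The carriers of organic cations, 1 for uptake and 1 for export, moved alike. Slc47a1 encodes MATE1, the proton exchanger that expels organic cations into bile and urine, and lies on chromosome 11 (mm10, 61343401 to 61378075, minus strand). Its levels were 29.8, 32.6 and 32.7 FPKM in LRH1+APAP livers, 20.6, 13.9 and 16.1 FPKM in APAP livers and 54.8, 52.8 and 48.6 FPKM in vehicle livers. No group overlapped with another, and LRH1+APAP livers lay between. Slc47a1 fell in APAP livers to 0.32 times the vehicle mean (-1.59 ± 0.13, adjusted p = 5.68e-05 by limma) and in LRH1+APAP livers to 0.61 times the vehicle mean (-0.70 ± 0.13, adjusted p = 0.00301). Against APAP livers it rose in LRH1+APAP livers to 1.88 times the mean (0.89 ± 0.13, adjusted p = 0.00676 by limma). These 3 calls were kept in all 23 alternatives run for each.

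Slc22a3 encodes OCT3, a low-affinity carrier of organic cations and monoamines, and lies on chromosome 17 (mm10, 12419975 to 12507704, minus strand). It was the least abundant of the 9 genes, listed at 0.626, 0.846 and 0.755 FPKM in LRH1+APAP livers, 0.279, 0.0414 and 0.107 FPKM in APAP livers and 1.28, 1.34 and 1.25 FPKM in vehicle livers. Here too no group overlapped with another and LRH1+APAP livers lay between. It fell in APAP livers to 0.11 times the vehicle mean (log2 difference of FPKM plus 1 of -1.01 ± 0.10, adjusted p = 0.000117 by limma). The added 1 FPKM understates the change of so low a gene, and with 0.1 added in its place the difference was -2.64. It rose in LRH1+APAP livers to 5.21 times the APAP mean (0.61 ± 0.10, adjusted p = 0.0105 by limma), a call lost without LRH1+APAP liver 3 (0.0508) or when the LRH1+APAP and APAP libraries were fitted alone (0.0502), its alternatives spanning 0.00113 to 0.0508. Against vehicle it fell to 0.57 times the mean (-0.40 ± 0.10, adjusted p = 0.0109 by limma), a call lost with 0.1 added (0.0967, its alternatives spanning 0.000467 to 0.0967). Its GENCODE exons reach into those of Plg, an abundant gene on the opposite strand, but the transcript model measured here ends before that overlap.

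Slc22a23, an SLC22 member without an established substrate, lies on chromosome 13 (mm10, 34179159 to 34345182, minus strand). It was listed at 17.6, 18.2 and 19.9 FPKM in LRH1+APAP livers, 13.7, 10.9 and 13.6 FPKM in APAP livers and 15.3, 17.0 and 14.0 FPKM in vehicle livers. It was highest in LRH1+APAP livers and lowest in APAP livers, with no overlap between groups, although the highest APAP and lowest vehicle livers were close. In LRH1+APAP livers it rose to 1.46 times the APAP mean (0.52 ± 0.11, adjusted p = 0.0221 by limma). That call was lost without LRH1+APAP liver 1 (0.053), 2 (0.0746) or 3 (0.0867), without APAP liver 3 (0.0503), with the liver number as a block (0.0525) and when the LRH1+APAP and APAP libraries were fitted alone (0.0701), its alternatives spanning 0.00671 to 0.0867. APAP differed from vehicle by -0.26 (interval -0.50 to -0.02, adjusted p = 0.0605 by limma), a difference that became a call with upper-quartile scaling (-0.51, 0.00454) or quantile normalization (-0.54, 0.00485), without APAP liver 1 (0.0351) and without vehicle liver 3 (0.0483), its alternatives spanning 0.00454 to 0.194. LRH1+APAP differed from vehicle by 0.26 (interval 0.01 to 0.50, adjusted p = 0.078 by limma), and this passed after scaling to summed FPKM (0.0197), with the APAP libraries kept out of the fit (0.0284) and without APAP liver 2 (0.0309), while upper-quartile scaling left a difference of 0.00 (adjusted p = 0.995, its alternatives spanning 0.0197 to 0.995).

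The 9 genes were then set beside the rest of their families. Of 42 SLCO, SLC22 and SLC47 genes found, 18 were tested and 10 were listed at 0 in every liver. The 42 summed to 646.6 to 688.7 FPKM in LRH1+APAP livers, 350.5 to 567.7 FPKM in APAP livers and 1054 to 1105 FPKM in vehicle livers. The 9 genes described here supplied between 22.5 and 24.8 percent of that sum in LRH1+APAP livers, between 25.1 and 30.9 percent in APAP livers and between 17.9 and 20.3 percent in vehicle livers, so most of it came from other members.

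Of 3 other SLCO genes tested, 2 fell and 1 rose in APAP against vehicle livers. Over all genes 15.1 percent were lower and 47.8 percent higher. Slco1b2, the main hepatic organic anion carrier of rodents, averaged 247.3 FPKM in LRH1+APAP livers, 120.4 FPKM in APAP livers and 500.3 FPKM in vehicle livers. It fell in APAP livers (-2.13, adjusted p = 0.000192 by limma), rose in LRH1+APAP against APAP livers (1.11, adjusted p = 0.0223) and fell in LRH1+APAP against vehicle livers (-1.01, adjusted p = 0.00812). Slco1a1, a near relative of Slco1a4, averaged 68.1 FPKM in LRH1+APAP livers, 56.6 FPKM in APAP livers and 150.6 FPKM in vehicle livers. It fell against vehicle in both (-1.44 in APAP and -1.14 in LRH1+APAP livers, adjusted p = 0.000634 and 0.00325 by limma), and its difference of 0.30 between LRH1+APAP and APAP livers did not pass (interval -0.18 to 0.78, adjusted p = 0.348). The 1 that rose was Slco3a1, named after its values were seen, at 1.05 FPKM in LRH1+APAP livers, 1.96 FPKM in APAP livers and 0.528 FPKM in vehicle livers.

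Of 6 other SLC22 and SLC47 genes tested, 4 fell and 1 rose in APAP against vehicle livers. Over all genes 15.1 percent were lower and 47.8 percent higher. In LRH1+APAP livers 2 of the 6 rose and 0 fell against APAP, beside 7.13 percent of all genes higher and 5.17 percent lower. Against vehicle 2 rose and 1 fell in LRH1+APAP livers, beside 39.2 percent higher and 8.02 percent lower. Slc22a28, a neighbour of Slc22a30 in sequence and position, averaged 10.1 FPKM in LRH1+APAP livers, 6.75 FPKM in APAP livers and 14.5 FPKM in vehicle livers and fell against vehicle in both (-0.48 in LRH1+APAP and -1.02 in APAP livers, adjusted p = 0.0399 and 0.00102 by limma). Slc22a18 fell in APAP livers by 0.41 (adjusted p = 0.0127 by limma). Slc22a4, the carnitine and ergothioneine carrier closest to Slc22a5, was named after its values were seen. It averaged 4.11 FPKM in LRH1+APAP livers, 1.69 FPKM in APAP livers and 2.53 FPKM in vehicle livers, and it rose in LRH1+APAP livers against APAP (0.92, adjusted p = 0.00335 by limma) and against vehicle (0.54, adjusted p = 0.00412). It fell in APAP against vehicle livers (-0.39, adjusted p = 0.0109 by limma). Its difference from Slc22a5 was not tested. Fragments shared by near relatives such as Slc22a5 and Slc22a21, or Slco1a1 and Slco1a4, may likewise have been divided among them.

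**Figure D4:**
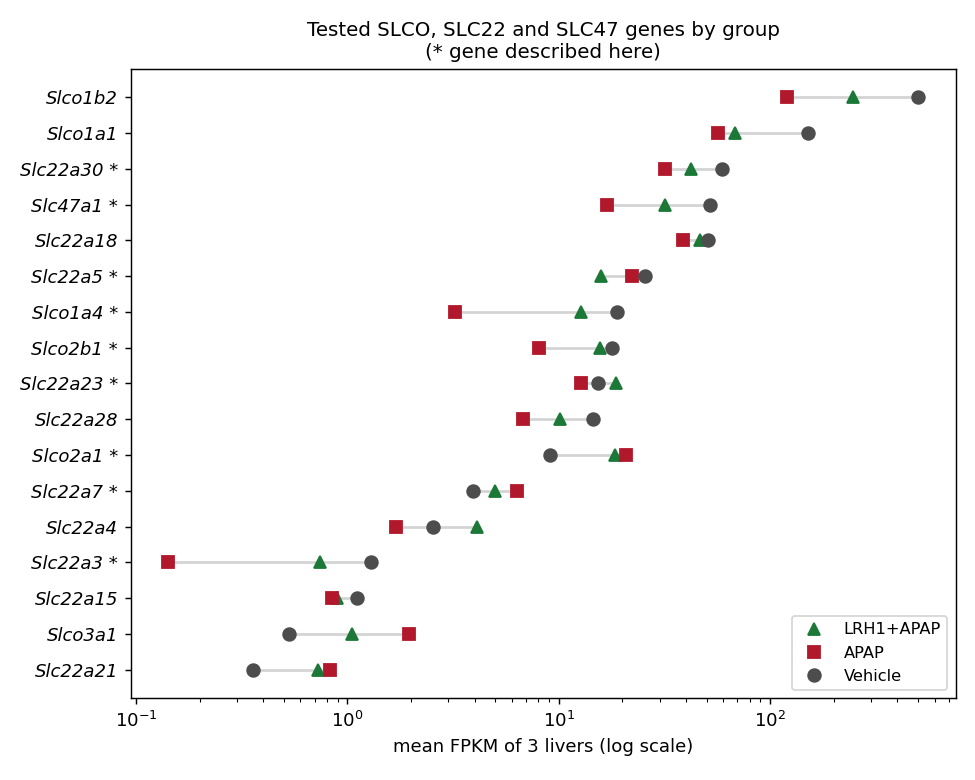
Mean FPKM of 3 livers (horizontal log axis) of 17 tested SLCO, SLC22 and SLC47 genes, sorted by their level in vehicle livers, with triangles for LRH1+APAP, squares for APAP and circles for vehicle livers. Slco1b2, at 247.3, 120.4 and 500.3 FPKM in these groups, is the most abundant, and in Slco2a1, Slc22a7, Slco3a1 and Slc22a21 the vehicle mean is the lowest of the 3.

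Efflux pumps, scaffolds and regulators of these carriers were read next. Of 9 tested ABC pumps of drugs and conjugates, 1 rose and 3 fell in APAP against vehicle livers. For LRH1+APAP livers, 1 rose and 1 fell against APAP, and 4 rose and 2 fell against vehicle. The shares over all genes were 47.8 percent higher and 15.1 percent lower in APAP against vehicle livers. In LRH1+APAP livers they were 7.13 and 5.17 percent against APAP, and 39.2 and 8.02 percent against vehicle. Abcc2, the canalicular pump of conjugates, averaged 107.3 FPKM in LRH1+APAP livers, 65.0 FPKM in APAP livers and 67.4 FPKM in vehicle livers, and rose in LRH1+APAP livers against APAP (0.74, adjusted p = 0.0194 by limma) and against vehicle (0.66, adjusted p = 0.0066). Abcc6 fell in APAP livers by 0.90 and in LRH1+APAP livers by 0.60 against vehicle (adjusted p = 0.00306 and 0.0278 by limma). Abcc3, a basolateral pump of conjugates, and Abcc10 fell in APAP livers by 0.36 and 0.22 (adjusted p = 0.0111 and 0.0363 by limma), and Abcc10 also fell in LRH1+APAP livers against vehicle by 0.25 (adjusted p = 0.0286).

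Of 4 scaffold genes, 2 fell and 0 rose in APAP against vehicle livers, beside 15.1 percent of all genes lower and 47.8 percent higher. Pdzk1, which holds several of these carriers in the membrane, fell by 0.85 in APAP livers and by 0.54 in LRH1+APAP livers against vehicle (adjusted p = 0.00267 and 0.0297 by limma), and Slc9a3r1, a related scaffold, fell in APAP livers by 0.26 (adjusted p = 0.0221). Of 14 regulators, 2 rose and 6 fell in APAP against vehicle livers. In LRH1+APAP livers 2 of the 14 rose and 0 fell against APAP, beside 7.13 percent of all genes higher and 5.17 percent lower. Against vehicle 4 rose and 3 fell in LRH1+APAP livers, beside 39.2 percent higher and 8.02 percent lower. The 14 include Nr5a2, the gene of LRH1 itself, which rose in both of these comparisons (3.50 and 3.13). Thus 1 rise in each of the last 2 counts is that of LRH1 itself. Nr1i3 and Nr1i2, the drug sensors CAR and PXR that induce Slco1a4 in mouse liver, averaged 113.8 and 25.8 FPKM in LRH1+APAP livers, 99.0 and 21.1 FPKM in APAP livers and 227.6 and 43.7 FPKM in vehicle livers. Their differences between LRH1+APAP and APAP livers, 0.26 and 0.34, did not pass (adjusted p = 0.454 and 0.309 by limma). Keap1, the inhibitor of NRF2, rose against vehicle by 0.46 in APAP livers and by 0.52 in LRH1+APAP livers (adjusted p = 0.000487 and 0.000502 by limma).

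Finally, the genes whose levels ran most nearly parallel to each transporter over the 9 livers were found by Pearson correlation of log2 values, among genes averaging 5 FPKM or more. The livers form 3 groups, so these values largely restate differences between groups and are given as a description. Slco1a4 ran closest to Cyp2c37 and Cyp2c50, at 0.975 and 0.964. Slc47a1 ran closest to Agmo and Slc10a5, at 0.996 and 0.994, and Slc22a3 ran closest to Slc47a1 itself, at 0.995, and to Erap1, at 0.994. Slc22a30 ran closest to Upb1 and A1cf, at 0.997 and 0.995, and Slco2a1 to Ptpn2 and Snhg1, at 0.996 and 0.989. Slc22a5 ran closest to G0s2 and Acadvl, at 0.954 and 0.940, Slc22a23 to Dcun1d4 and Dag1, at 0.978 and 0.968, Slc22a7 to Spns1 and Cib1, at 0.954 and 0.912, and Slco2b1 to Cyp3a59 and Srrm2, at 0.928 and 0.921.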

How the data were processed

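The authors deposited FPKM, one value per transcript model and library, on genome build mm10 and with no stated scaling between libraries. Per the submitters' processing notes, FastQC 0.10.0, Bowtie2 2.2.6 and StringTie 1.3.3b were used, with no role or order given. Per the labels, libraries were made from 1 µg of total RNA with an Illumina TruSeq mRNA kit. Each column was assigned to its liver by the labels, and 1 line of the table was empty. For each symbol the FPKM of its models were added up, genes averaging 0.5 FPKM or more were kept, and log2 of FPKM plus 1 was fitted with limma 3.58.1 in R 4.3.3 (group means, 9 libraries, intensity trend, 6 residual degrees of freedom, Benjamini-Hochberg adjustment over 12202 genes). The code was tested on simulated data. Read counts and depth are not given, so precision comes from the spread between livers. Promoter windows came from RefSeq (GRCm38.p6), and strands and exon overlaps from GENCODE M21.

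The 9 genes and all lists were chosen with earlier results of these data known. Genes outside the 9 were named by rule as the up to 4 of each list, marker lists aside, with the smallest adjusted p, a call in at least 1 comparison and an average of 5 FPKM or more in some group, and as the 2 closest partners of each transporter. Slco3a1, Slc22a4, Slc22a21 and the cell type markers given singly fall outside that rule. A gene that this rule names is not reported here. Alternatives, 23 in all, changed pseudocount, filter, scaling, summing of models, spread model, libraries fitted and the liver number as a block, and left out each liver in turn.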

Additional observations from a re-analysis of the deposited data

How the results depend on the processing

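Slco1a4, Slc22a3, Slc22a30 and Slc47a1 in APAP against vehicle livers, Slco1a4 and Slc47a1 in LRH1+APAP against APAP livers, and Slco2a1 in both comparisons with vehicle kept their calls in every alternative that tested them (23, or 22 for Slc22a3, which a filter of 5 FPKM removed). Directions turned only where no call was made: Slc22a7 stood at 0.02 in LRH1+APAP against APAP without APAP liver 1 and at -0.03 in LRH1+APAP against vehicle after quantile normalization, and Slco2b1 at 0.14 and 0.24 in LRH1+APAP against vehicle without LRH1+APAP liver 1 and without vehicle liver 1. Leaving out livers in turn moved the first over -0.45 to 0.02 and the last over -0.34 to 0.24. The cause was not tested.

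Leaving out each liver gave 4 to 6 transporters lower and 1 higher in APAP against vehicle, 2 to 5 higher and 0 lower in LRH1+APAP against APAP, and 1 to 2 higher and 2 to 4 lower in LRH1+APAP against vehicle. With 6 libraries in the fit, 2 were higher in LRH1+APAP against APAP and 2 in LRH1+APAP against vehicle, and scaling to summed FPKM also gave 2 in the last.

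Over all genes, APAP against vehicle gave 3392 higher with a filter of 5 FPKM, where fewer genes are tested, 3810 higher and 3227 lower after upper-quartile scaling, and 3126 and 3699 after quantile normalization. LRH1+APAP against APAP gave 1312 higher and 404 lower after scaling to summed FPKM, 203 and 60 with 6 libraries, and 416 lower with the highest transcript model. Leaving out livers gave 158 to 2031 higher and 53 to 2607 lower, the highest without APAP liver 1. LRH1+APAP against vehicle gave 2887 higher with the filter of 5 FPKM, 2358 higher and 2396 lower after upper-quartile scaling, 1899 and 2624 after quantile normalization, 633 lower after scaling to summed FPKM and 1502 lower with 6 libraries. Leaving out livers gave 543 to 1357 lower.

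For livers of the same number in different groups, deviations from group means correlated at -0.14 to 0.07. Whether such livers were handled together is not given by the labels and cannot be told from these correlations. With the liver number as a replicate block, LRH1+APAP against APAP gave 508 genes higher and 299 lower, and the calls of Slco2b1 in APAP against vehicle (0.0505) and of Slc22a23 in LRH1+APAP against APAP (0.0525) were lost. No other call of the 9 genes changed. Depth is unknown, which limits Slc22a3 most, at 0.0414 FPKM in its lowest liver.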
